A study of Arabidopsis thaliana with 42 samples.

Results

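Probe sets whose transcript stood highest in a single accession, and whose gene carries only a locus number as its symbol, were taken from arrays of Arabidopsis roots. To find them, the mean of log2(signal + 1) over the 6 arrays of each accession was formed for every probe set that matched 1 nuclear gene. Genes with a symbol other than their locus number in the platform annotation were left out, as were the loci AT5G45500 and AT5G45510. Those that stayed are called unnamed, although other sources name some of them. They were ranked by the lead, which is the highest accession mean minus the second highest. Those with a highest mean over that of a signal of 200 and a highest accession other than Col0 were candidates, 3644 of the 22810 probe sets on the array, and the 100 with the largest lead are the members described here. The lead was read from all 42 arrays, so the accession in which a member is high is a description and was not tested. Tests are given for the nitrate response, which the choice did not use, and for a separate list chosen on the arrays of 1 treatment. Whole roots came from 7 natural accessions (Col0, Kas2, NFA8, SQ8, TAMM27, Ts5 and Var2-1), all wild plants with no transgene or induced mutation named in the labels. Seedlings had grown in liquid culture for 12 days at 22 °C in days of 16 hours of light and 8 hours of dark, with 0.5 mM ammonium succinate as the nitrogen source and 3 mM sucrose. At dawn, KNO3 was added to 5 mM for 2 hours as the nitrate treatment, or KCl to 5 mM as its control, and each of the 14 groups has 3 arrays labelled as biological replicates.

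An accession is a wild line collected from one place and kept by selfing, so that accessions carry different alleles and different gene contents in a common species. The arrays (ATH1) measure a transcript with a probe set of short oligonucleotide elements that copy the Col0 sequence. A transcript of another accession that differs from Col0 under an element binds that element less well, so such differences lower a signal more readily than they raise it. Nitrate, besides feeding the plant, acts as a signal that changes the abundance of many root transcripts within hours.

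The files used here describe the product of few members. RefSeq lists AT4G01150 as CURT1A, a protein that bends the thylakoid membranes of chloroplasts, and lists AT2G45230, AT5G34920 and AT2G12050 as pseudogenes. The gene descriptions supplied with the study name AT2G26500 as the petM subunit of the cytochrome b6f complex, which passes electrons between the photosystems, AT2G45230 as a transposable element gene, AT1G26240 as a proline-rich extensin-like protein (extensins are structural proteins of the cell wall), AT4G16260 as a glycosyl hydrolase, AT3G29970 as a B12D protein and AT5G20700 as a protein of unknown function. The other 91 members are given by locus alone. Pseudogenes made up 3 of the 100 members and 6 of the 3644 candidates.

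Array medians lay between a signal of 97.8 and 158, and the methods' detection cutoff, a signal of 100, was reached by 49.5 to 62.5% of probe sets. Control probe sets at the 3' and 5' ends of GAPDH, actin and ubiquitin, which report RNA integrity, divided the arrays. Their mean log2 ratio, 3' against 5', was low on 24 arrays (0.30 to 1.62) and high on 18 (2.14 to 3.91). The high class held 5 arrays of Kas2, 4 each of TAMM27 and Ts5, 2 each of NFA8 and Var2-1, 1 of SQ8 and 0 of Col0. Of the root markers listed, the root hair gene EXPA7 had a probe set matched to 1 gene, and its mean signal by accession was 33.3 to 276. The summed signal of 7 photosynthesis genes (RCA, PSBY, PSAN, LHCB4.1, PSAE-1, PSB27 and PSBW, a list chosen after the values were seen) was 4092 to 15515 on the TAMM27 arrays, 908 to 13755 in Ts5, and 557 to 5098 in Col0, Kas2, NFA8 and SQ8. In Var2-1 it reached 53041 on KNO3 replicate 1, while the other 5 arrays had 892 to 1770. Of the photosynthesis genes listed beforehand, RCA and PSAE-1 alone had a probe set matched to 1 gene. Their sum was 1906 to 4563 in TAMM27, 281 to 5626 in Ts5 and 95.3 to 1853 in Col0, Kas2, NFA8 and SQ8. On Var2-1 KNO3 replicate 1 it was 23138. The highest Ts5 array thus exceeded every TAMM27 array on this shorter list, and members were not compared with it. Both Var2-1 arrays of replicate 1 also had a ratio over 3.8, against 1.53 or less on the other 4. Squared correlations between replicates were 0.46 to 0.73 in SQ8, 0.51 to 0.69 in Ts5, 0.59 to 0.92 in Var2-1 and 0.74 to 0.92 in the other 4 accessions.

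Members were spread over all 6 accessions that could hold them: 24 were highest in TAMM27, 20 in Var2-1, 17 each in Kas2 and SQ8, and 11 each in NFA8 and Ts5. On the log2 scale the lead ranged from 0.90 to 3.33 with a median of 1.07, which corresponds to a 1.87 to 10.1-fold difference from the next accession. The median lead was 1.36 in Var2-1, 1.11 in TAMM27, 1.07 in NFA8, 1.00 in Ts5, 0.99 in Kas2 and 0.97 in SQ8. In 8 of the 100 members all 6 arrays of the raised accession lay above all 36 others, a pattern found in 11 of the 3644 candidates (0.302%), and since the choice favours it, nothing is read from the difference. The raised accession was highest in both treatments for 91 members, in KCl alone for 5 and in KNO3 alone for 4. The spread between replicates was wide: the SD within the 14 groups had a median of 0.95 on the log2 scale over the members (0.31 to 2.25) and 0.52 over the candidates. Ranked among the 7 accessions, Col0 was at place 2 in 16 members, 3 in 16, 4 in 18, 5 in 5 and 6 in 18, and was lowest in 27. Single arrays moved these numbers: without Var2-1 KCl replicate 1 the list of 100 held 38 of Var2-1, 10 of SQ8 and 7 of NFA8, without NFA8 KCl replicate 2 it held 20 of NFA8, without Ts5 KCl replicate 1 it held 18 of Ts5 and without Kas2 KNO3 replicate 1 it held 11 of Kas2. It held 7 of Ts5 without Kas2 KCl replicate 3, SQ8 KCl replicate 2 or TAMM27 KNO3 replicate 2, and 11 of SQ8 without Var2-1 KNO3 replicate 1. On the 24 arrays of low integrity ratio it held 46 of Ts5, 31 of Var2-1, 18 of TAMM27, 4 of NFA8, 1 of SQ8 and 0 of Kas2, and 0 of the 17 members of Kas2 and of SQ8 were kept. Those 24 were 1 array of Kas2, 2 each of TAMM27 and Ts5, 4 each of NFA8 and Var2-1, 5 of SQ8 and 6 of Col0. How far these unequal numbers or RNA integrity take part was not tested. Applied to the KCl arrays alone the rule kept 41 of the 100 members, to the KNO3 arrays alone 46, and with medians in place of means 53.

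**Figure D1:**
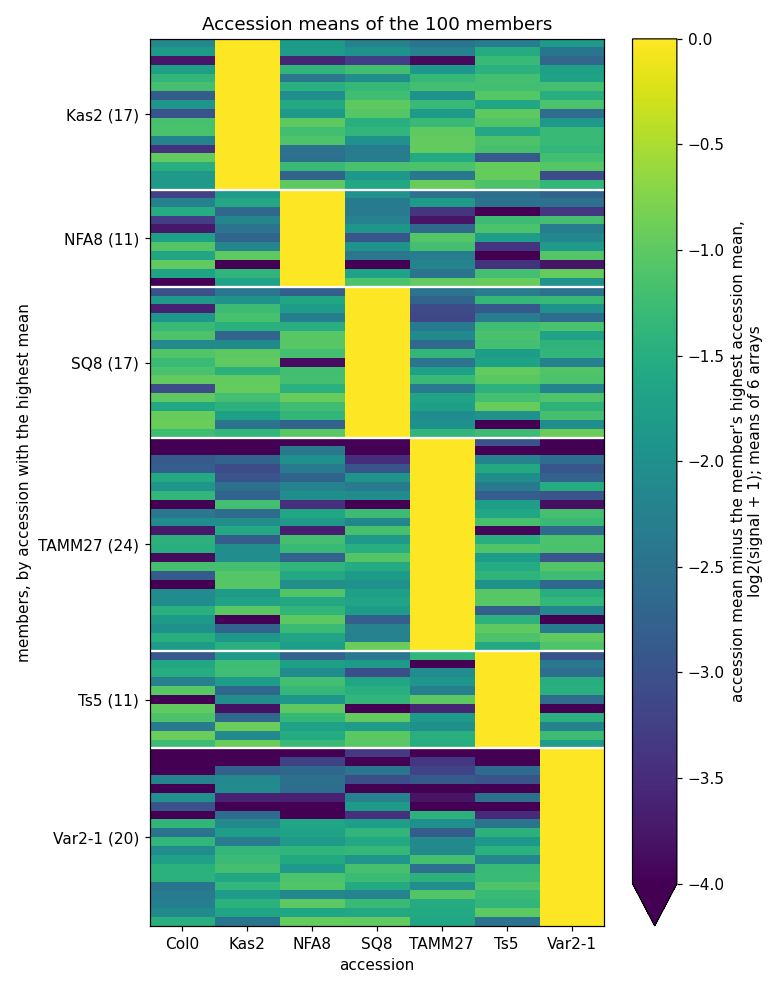
Each row is 1 of the 100 members and each column an accession, and color gives the accession mean of log2(signal + 1) over 6 arrays minus the member's highest accession mean, so 0 marks the raised accession. Rows are grouped by raised accession, with the number of members in brackets, and the other accessions are at most -0.90.

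For 15 members the second-highest accession mean was itself under a signal of 100, so that all other accessions lay below the detection cutoff on average. The mean of their raised accession stood 2.03 to 4.25-fold (median 2.60) above that cutoff. This is a lower bound on its fold over the means of the other accessions. Of these 15, 8 were Var2-1 members and 4 were TAMM27 members. At the edge of the list, AT5G35940 and AT2G01070 in SQ8, at ranks 99 and 100, had leads of 0.9025 and 0.9004, and the first left out were AT2G37660 in TAMM27 with 0.8992 and AT2G05540 in Ts5 with 0.8990.

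The 8 members without overlap are AT2G45230, AT5G34920, AT4G18975 and AT1G50290 in Var2-1, AT1G20400 and AT5G16990 in TAMM27, AT1G33910 in SQ8 and AT1G60690 in NFA8. AT1G50290 and AT5G16990 were named after their values were seen. Kas2 and Ts5 had none.

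**Figure D2:**
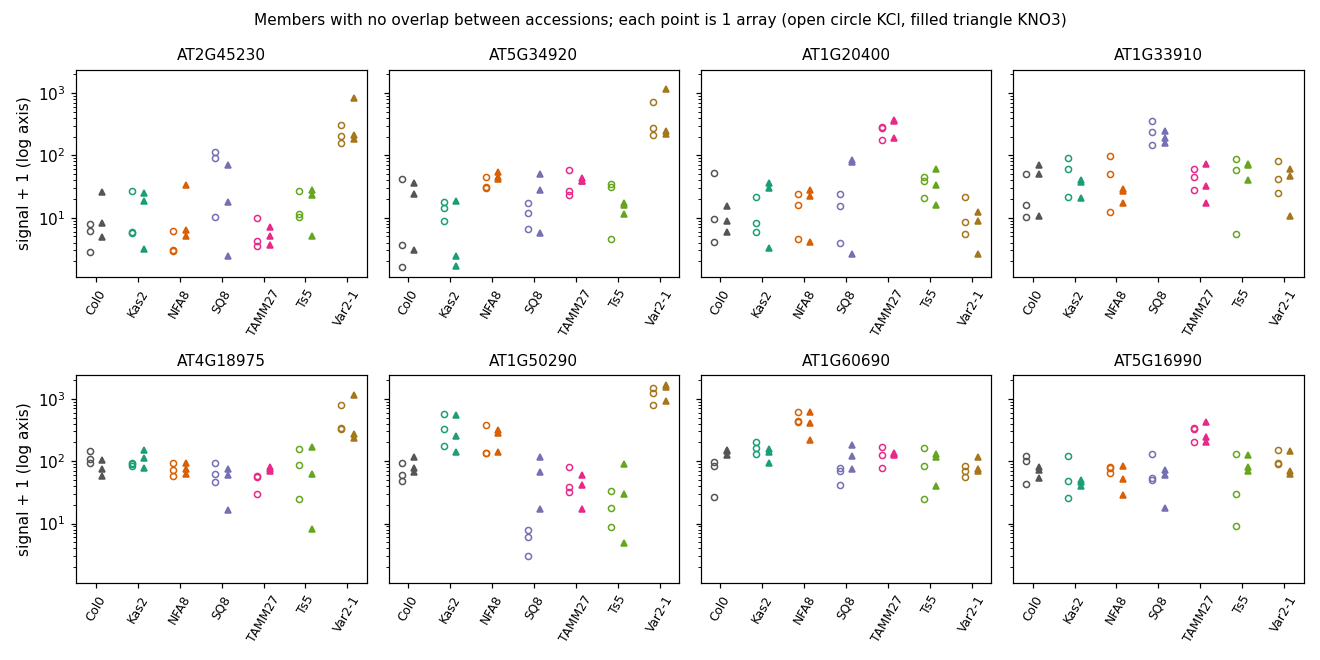
Signal + 1 on a log axis for the 8 members without overlap, each point 1 array, with KCl as open circles and KNO3 as filled triangles. In every panel the 6 points of 1 accession lie above the 36 points of the others.

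Var2-1 held the 2 members with the largest leads, and both are pseudogenes. The signal of AT2G45230, the transposable element gene, was 309, 201.4 and 156 in KCl and 842, 210.0 and 184 in KNO3 on the Var2-1 arrays and 1.4 to 112.5 (median 6.5) on the 36 others. Every Var2-1 array was above every other array, the nearest being SQ8 KCl replicate 3. The lead was 3.33 on the log2 scale, and the Var2-1 mean was 2.60-fold over the cutoff. The pseudogene AT5G34920 read 718.5, 271 and 213.5 in KCl and 1138.5, 248 and 222 in KNO3 in Var2-1 and 0.6 to 58.3 (median 22.8) elsewhere. Its lead was 3.21 and its Var2-1 mean 3.68-fold over the cutoff, and no other accession reached 100 on any array. This probe set is one of 3 members whose elements match more than 1 transcript, as its name shows, so the signal may come from a related copy. Of these 3, 2 are Var2-1 members and 1 is a Ts5 member, and the same limit holds for each. Among the candidates such probe sets numbered 20 of 3644 (0.55%).

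AT4G18975 gave 782, 322 and 334 in KCl and 1131, 276 and 234 in KNO3 in Var2-1 against 7.3 to 165 (median 73.7). AT1G50290 gave 781, 1229 and 1518 in KCl and 1673, 932 and 1526 in KNO3 against 2.0 to 572 (median 72.0). For both the groups did not overlap, and Kas2 had the second-highest mean and SQ8 the lowest. AT1G26410, at rank 4 with a lead of 2.44, read 7.0, 721 and 754 in KCl and 185, 618 and 998 in KNO3 in Var2-1 and 1.8 to 330.2 elsewhere. Here the Var2-1 arrays disagreed: replicates 2 and 3 had 618 to 998, while both arrays of replicate 1 lay among those of the other accessions.

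Replicate 1 of Var2-1 stood apart in other members as well. In 8 of the 20 Var2-1 members both arrays of replicate 1 lay outside the range of the other 4 Var2-1 arrays, above it in 3 (AT2G45230, AT5G34920 and AT4G18975) and below it in 5. Among all 487 candidates highest in Var2-1 the share was 44.8%, so this was not particular to the members. Both arrays of replicate 3 lay outside the range of the others in 7 of the 20 (35.0%), against 22.0% of the candidates. For replicate 2 it was 0 of the 20, against 12.3%. The glycosyl hydrolase gene AT4G16260 was 1 of the 5 with replicate 1 below. It had 605, 4528 and 6040.2 in KCl and 948, 5109.7 and 5618 in KNO3 in Var2-1 and 206 to 2581 (median 971) elsewhere. With both arrays of replicate 1 left out and the rule applied again, 18 of the 20 Var2-1 members stayed among the 100. AT2G45230 did not, since its mean over the other 4 arrays fell under that of a signal of 200, and AT5G20700 did not either. AT5G20700 had 1429, 2676 and 2298 in KCl and 4828, 3054 and 3552 in KNO3 in Var2-1 and 229 to 3263.5 (median 794) elsewhere, so 4 of its 6 Var2-1 arrays did not exceed the highest array of the others. How far RNA integrity takes part in these values was not tested.

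The 24 TAMM27 members differed in how closely they tracked the photosynthesis genes. Over all 42 arrays, which share 14 groups, log2 signal correlated with the log2 summed signal of the 7 photosynthesis genes at r over 0.5 in 15 of the 24 (0.52 to 0.91), against 58 of the 828 candidates highest in TAMM27 (7.0%). None of the 76 members of the other accessions reached 0.5. By accession median the photosynthesis sum was itself highest in TAMM27, although its highest single array was of Var2-1. Members were chosen for their lead in TAMM27 on the same arrays. This favours a high correlation, so nothing is read from these shares. CURT1A and petM were among the 15. These and other genes named here from their descriptions were picked after their values were seen. CURT1A read 1162, 1094 and 1405 in KCl and 716, 312 and 856 in KNO3 on the TAMM27 arrays and 133 to 2557 (median 294) on the others. petM read 825, 765 and 1869.6 in KCl and 529.5, 269.5 and 959 in KNO3 in TAMM27 and 28.1 to 4817 (median 255) elsewhere. In both genes the single highest array of all 42 was Var2-1 KNO3 replicate 1, the array with the highest summed photosynthesis signal, at 2557 for CURT1A and 4817 for petM. The correlation was 0.91 for CURT1A and 0.89 for petM. That array was the highest of the 36 others in 11 of the 15 members, and in 4 of the 56 members of Kas2, NFA8, SQ8 and Ts5. The 15 were picked for tracking a sum that peaked on that array, so nothing is read from this difference.

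**Figure D3:**
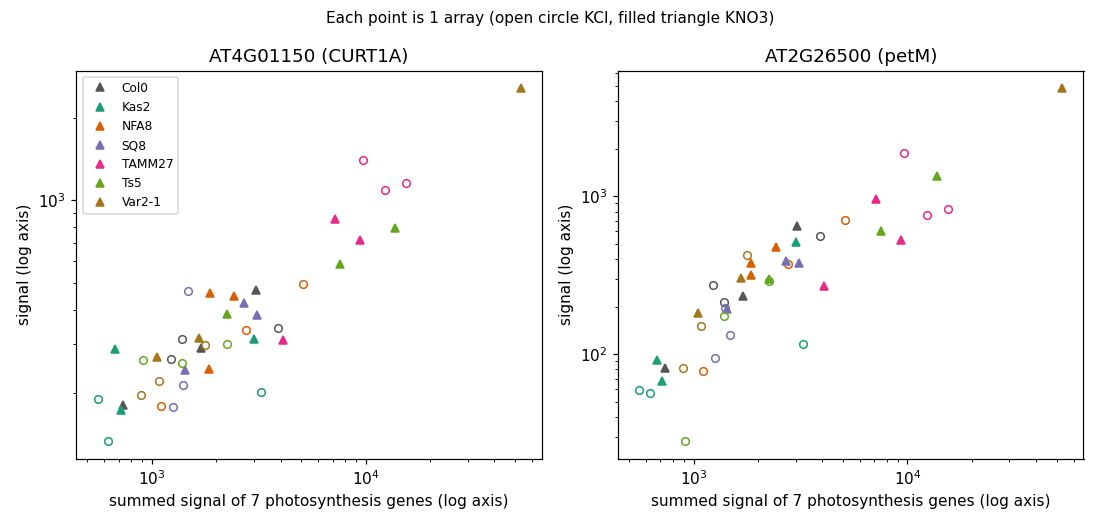
Signal of CURT1A and petM (log axis) against the summed signal of 7 photosynthesis genes (log axis), each point 1 of 42 arrays, with KCl as open circles and KNO3 as filled triangles. Both rise with the sum across accessions, and the point at the upper right is Var2-1 KNO3 replicate 1.

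The lead of the same 15 members was mostly larger in KCl. Their median lead was 1.71 in the KCl arrays and 0.29 in the KNO3 arrays, and in 4 of them another accession was higher in KNO3. Within TAMM27 the median change was smaller, at -0.40, and 11 of the 15 were lower in KNO3. The lead also depends on the highest other accession, and the 15 were picked for tracking a sum that peaked on Var2-1 KNO3 replicate 1. The photosynthesis sum on the TAMM27 arrays was itself 9670 to 15515 in KCl and 4092 to 9374 in KNO3. AT2G42220, with a lead of 1.57 and a correlation of 0.86, had 566, 612 and 275 in KCl and 485, 129.5 and 212 in KNO3 in TAMM27, while Ts5 had 5.7, 87.0 and 60.8 in KCl and 710.0, 582 and 123.5 in KNO3 and Var2-1 KNO3 replicate 1 had 1845. A higher share of green cells in the sample and more of these transcripts per cell cannot be told apart in whole-root RNA, and their part in the TAMM27 levels was not tested.

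Others of the 15 were high in TAMM27 in both treatments. AT5G26270 had 5422, 5706 and 2363 in KCl and 4568, 6377 and 2554 in KNO3 in TAMM27 against 42.2 to 2397 (median 173) elsewhere, with a lead of 2.39. A single array, NFA8 KCl replicate 2 at 2397, reached the lowest TAMM27 array. Its correlation with the photosynthesis sum was 0.56, and its signal on Var2-1 KNO3 replicate 1, where the sum was highest, was 346.5. AT1G62290 had 466, 172 and 247 in KCl and 462, 472 and 168 in KNO3 in TAMM27 and 7.6 to 305.5 (median 53.4) elsewhere, with a correlation of 0.65, and the highest array outside TAMM27 was again Var2-1 KNO3 replicate 1. AT5G16990 had 325, 339.7 and 200.1 in KCl and 430.4, 242 and 205 in KNO3 in TAMM27 against 8.1 to 151 (median 68.8), with no overlap and a correlation of 0.53.

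The 9 TAMM27 members with a correlation of 0.5 or less (0.05 to 0.46) had a median lead of 1.18 in KCl and 1.04 in KNO3. AT1G20400, at rank 3 of the whole list, read 277, 283 and 174.5 in KCl and 351, 365 and 187 in KNO3 in TAMM27 and 1.6 to 82.7 (median 14.7) elsewhere, with a lead of 3.01. No array of another accession reached 100, and the TAMM27 mean was 2.61-fold above the cutoff. Over all 24 members, both TAMM27 arrays of replicate 3, the only ones of low integrity ratio, lay outside the range of the other 4 in 10, below it in 8, and the share was 46.9% over the candidates. The part of RNA integrity in the TAMM27 levels was not tested.

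Among the 17 Kas2 members, log2 signal over the 42 arrays correlated with the integrity ratio at over 0.5 in 9, as it did in 39.0% of the 863 candidates highest in Kas2. Since 5 of the 6 Kas2 arrays had a high ratio, the choice favours this too. Kas2 KNO3 replicate 3, the only Kas2 array of low ratio, was the lowest of the 6 in 11 of the 17. This count was not made over the candidates, so nothing is read from it. AT4G22110 had its lowest Kas2 signal on KNO3 replicate 3, with 3668, 1184 and 779 in KCl and 3792, 2428 and 394 in KNO3 in Kas2 and 59.1 to 1471 (median 358) elsewhere, a lead of 1.82 and a correlation of 0.62 with the ratio. AT1G11410 did so too, with 138, 393 and 222 in KCl and 430.1, 597 and 109 in KNO3 in Kas2, 29.6 to 338 (median 84.7) elsewhere and a correlation of 0.56. The part of RNA integrity in these levels was not tested. AT3G25600, with a correlation of 0.20, read 2466, 3274 and 1919 in KCl and 3313, 3082 and 1735 in KNO3 in Kas2 and 133 to 2158 (median 676) elsewhere, and a single other array, Ts5 KCl replicate 2, reached the Kas2 range. AT1G32970 read 162, 205 and 72.3 in KCl and 609, 412 and 190.5 in KNO3 in Kas2 and 2.8 to 509 (median 29.0) elsewhere, where 5 of the 6 accessions stayed under 64 on every array and Ts5 KCl replicate 2 reached 509.

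The 17 SQ8 members had the smallest median lead, in an accession whose replicates agreed least. AT1G33910 was the exception. It read 232.5, 145 and 350.0 in KCl and 241, 158 and 188 in KNO3 in SQ8 and 4.4 to 97.1 (median 39.7) elsewhere, with no overlap and no other array at 100. Its lead was 2.32 and its SQ8 mean 2.09-fold above the cutoff. AT1G26390 showed the opposite picture, with 74.9, 458.5 and 233 in KCl and 425, 754 and 1234 in KNO3 in SQ8 and 9.3 to 1003 (median 65.0) elsewhere. In KCl Kas2 was higher than SQ8 by 0.65 on the log2 scale, and in KNO3 SQ8 led by 2.80. AT1G50060 had 287, 232 and 62.2 in KCl and 342.5, 465 and 381 in KNO3 in SQ8, AT5G52720 had 476, 364 and 44.6 in KCl and 211, 369 and 328 in KNO3, and the other accessions ranged from 2.1 to 522 (median 105) and 4.0 to 262 (median 61.5). In both genes SQ8 KCl replicate 3 was the low array, and both overlapped the other accessions. That array was also the only one of SQ8 with a high ratio. In AT1G33910, AT5G35940 and AT2G01070 it was instead the highest SQ8 array, at 350.0, 298 and 391. Its place was not counted over all 17 members, and the part of RNA integrity in the SQ8 levels was not tested.

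The 11 NFA8 members led in both treatments without exception. AT1G60690 read 447, 624 and 427 in KCl and 625, 221 and 405 in KNO3 in NFA8 and 23.4 to 205 (median 115) elsewhere, with no overlap and a lead of 1.58. AT1G23200 read 220.5, 166 and 401 in KCl and 463.5, 248 and 322.5 in KNO3 against 5.4 to 251 (median 58.5), where SQ8 KNO3 replicate 1 was the only array over 149. AT4G07820 read 2662, 1587 and 902 in KCl and 531, 1996 and 1309 in KNO3 against 15.3 to 775 (median 192), with Col0 next. AT4G08380 read 299, 313 and 251 in KCl and 334, 575 and 585 in KNO3 in NFA8 and 7.9 to 593 (median 68.3) elsewhere, and none of its NFA8 arrays exceeded the highest array of the others, Ts5 KCl replicate 2. The extensin-like gene AT1G26240 had 1139, 303 and 650.0 in KCl and 1702, 1159.7 and 1044 in KNO3 in NFA8 and 54.3 to 1599 (median 244) elsewhere, with Var2-1 KCl replicate 2 the highest of these. For the B12D gene AT3G29970 the NFA8 replicates split: 1988, 28.8 and 2194.5 in KCl and 3098, 41.3 and 6333.5 in KNO3, with both arrays of replicate 2 far below the other 4, against 4.3 to 1296.5 (median 64.9) in the other accessions.

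The 11 Ts5 members had leads of 0.91 to 1.36, and none was free of overlap. The pseudogene AT2G12050 read 401, 227 and 262 in KCl and 551, 733 and 194 in KNO3 in Ts5 and 13.8 to 210.2 (median 68.9) elsewhere, and 5 of the 6 Ts5 arrays exceeded every other array. AT4G20230 read 847, 381 and 154 in KCl and 577.5, 752 and 284 in KNO3 against 3.7 to 379.8 (median 104), with TAMM27 lowest at 3.7 to 82.0. AT4G09110 had 354, 309 and 224 in KCl and 523, 134 and 254 in KNO3 against 6.5 to 281 (median 78.8), and AT4G38940 had 275, 376 and 816 in KCl and 285, 247 and 463 in KNO3 against 10.8 to 297 (median 124.5). In both, 3 of the 6 Ts5 arrays exceeded all others.

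Whether a lead seen in one treatment was found again in the other was tested on a separate list, chosen on 1 treatment alone. The arrays of the other treatment were not used for that list. They were used to choose the members, so the members themselves are not tested here. The rule was applied to the 21 KCl arrays alone, and the 100 probe sets so chosen were compared on the 21 KNO3 arrays, raised accession minus the mean of the other 6, with limma over all 5415 probe sets above the floor in KCl and Benjamini-Hochberg adjustment at 0.1 in each accession. The raised accession was significantly higher for 31 of the 100 and lower for 0. Among all 3850 unnamed probe sets over the floor and not highest in Col0 in KCl, 302 (7.84%) were higher in KNO3 in the accession that was highest in KCl. The median difference was 1.22 on the log2 scale for the 100 and 0.32 for the 3850, and the accession highest in KCl was again highest in KNO3 for 64 of the 100 against 32.5%. By accession, 9 of 35 were called in TAMM27, 8 of 23 in Ts5, 5 of 10 in Var2-1, 4 of 5 in NFA8, 3 of 14 in Kas2 and 2 of 13 in SQ8. Shares over all probe sets were not counted by accession, so nothing is read from these. The count was 20 with TAMM27 KNO3 replicate 1 left out, against 203 of all 3850 (5.27%). Without Var2-1 KNO3 replicate 1 it was 44, against 430 of 3850 (11.2%), so the share over all moved with it. Chosen on KNO3 and tested on KCl, 27 of 100 were higher and 0 lower, against 309 of 3920 higher over all (7.88%).

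Of the 31 called, 23 are members, as are 41 of the 100 chosen in KCl. Members were chosen on the KNO3 arrays as well, so their values there are a description and test nothing. On the KNO3 arrays AT5G26270 was higher in TAMM27 by 4.24, AT3G25600 in Kas2 by 1.73, AT1G60690 in NFA8 by 1.78 and AT1G33910 in SQ8 by 2.50. In TAMM27 and Var2-1, same-numbered KCl and KNO3 arrays deviated together from their group means in all 3 pairs (correlations of 0.42 to 0.70). There the arrays tested were not independent of those used to choose. The 9 calls in TAMM27 and 5 in Var2-1 are therefore no test on separate arrays.

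**Figure D4:**
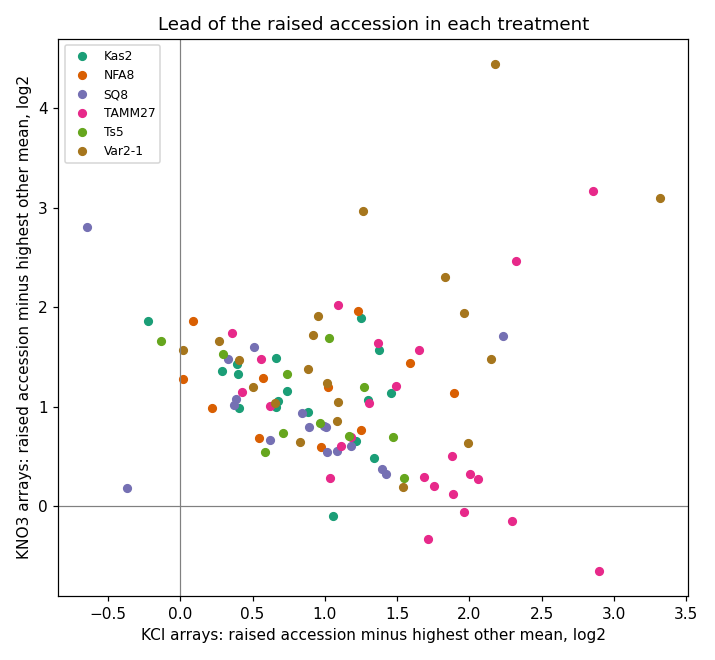
Lead of the raised accession over the highest other accession, on the log2 scale, in the KCl arrays (horizontal) and the KNO3 arrays (vertical) for the 100 members, colored by raised accession. The lead was below 0 for 5 members in KNO3 and for 4 in KCl, where another accession was higher.

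The nitrate response, KNO3 minus KCl on the log2 scale, is a contrast the choice did not use. It was fitted with limma over the 5260 probe sets of 1 nuclear gene whose highest accession mean exceeded that of a signal of 200, all 100 members among them. Averaged over the 7 accessions, 2 members rose and 0 fell at an adjusted p of 0.1 (Benjamini-Hochberg), and 11 of the 100 had an unadjusted p under 0.05. Of all 5260 probe sets 53 were called (1.01%), 26 up and 27 down, so the share of members called was near that of all probe sets. The median averaged response was 0.18 over the members and -0.02 over all probe sets tested.

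AT1G49500, a Var2-1 member, rose by 1.86 ± 0.42 (SE) on the log2 scale, averaged over accessions (adjusted p = 0.0242, limma). In Kas2 it read 545, 42.1 and 72.2 in KCl and 1064.5, 1042 and 374 in KNO3, in Ts5 585, 94.3 and 12.9 in KCl and 1262, 1083.5 and 418 in KNO3, in SQ8 214, 75.1 and 145 in KCl and 472, 1000.1 and 683 in KNO3 and in Var2-1 271.5, 274 and 1494 in KCl and 2673, 222 and 1445 in KNO3. The group mean was higher in KNO3 in all 7 accessions, without overlap in SQ8 and NFA8. AT5G14330, an SQ8 member, rose by 1.07 ± 0.28 (adjusted p = 0.0707, limma), with 181, 185 and 465.5 in KCl and 274, 272 and 472 in KNO3 in SQ8, 66.7, 89.6 and 140.0 in KCl and 163, 200.5 and 190.1 in KNO3 in Col0 and 48.1, 26.6 and 17.1 in KCl and 76.2, 47.7 and 80.7 in KNO3 in Kas2. When arrays were left out one at a time, AT1G49500 was called in 42 of 42 fits and AT5G14330 in 20. The call for AT5G14330 was also lost with no filter on low signals and under an ordinary linear model.

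**Figure D5:**
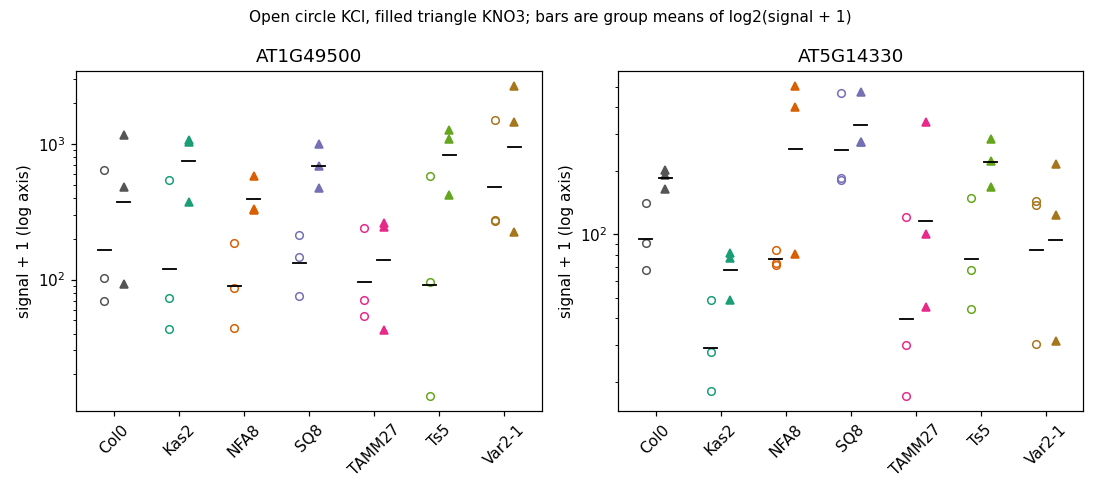
Signal + 1 on a log axis for AT1G49500 and AT5G14330 in each accession, each point 1 array, with KCl as open circles, KNO3 as filled triangles and bars at the group means of log2(signal + 1). Both rose with nitrate on average over the 7 accessions, by 1.86 and 1.07 on the log2 scale.

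In the accession where a member was raised, the nitrate response passed the threshold for 0 of the 100 (limma; 2 with an unadjusted p under 0.05), against 26 of 5260 probe sets in their own highest accession (0.494%). The interaction of nitrate and accession was called for 0 members (6 unadjusted) and 16 of 5260 probe sets (0.304%). The response of the raised accession minus the mean of the other 6 was called for 0 members (5 unadjusted) and 8 of 5260 (0.152%). The smallest adjusted p for a response in the raised accession was 0.280, for AT2G15560 in TAMM27, named after its values were seen. It read 4094, 1525 and 1332 in KCl and 671, 385 and 175.5 in KNO3 in TAMM27, a response of -2.50 ± 0.70 (SE), and the second-highest accession, Kas2, read 1592, 363 and 286 in KCl and 280.1, 228 and 249 in KNO3. In TAMM27 all 3 KCl arrays were above all 3 KNO3 arrays. Responses in the raised accession pointed up in 61 members and down in 39, and by accession up in 17 of 20 in Var2-1 and in 8 of 24 in TAMM27. Members of an accession share the same 6 arrays, and directions were not counted over all probe sets, so nothing is read from these counts. The median size of the responses without sign was 0.47, against 0.26 over all probe sets, beside the wider replicate spread given above.

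Before the signals were computed, the authors had removed probe elements that ranked as outliers against Col0, separately for each of the 6 other accessions and each treatment. A member had lost a median of 2.0 elements in its raised accession and 1.5 in the other 5, and more in the raised accession for 65 of 100, against 48.1% of candidates. The share was 80.0% in Var2-1, 72.7% in Ts5, 70.8% in TAMM27, 70.6% in Kas2, 52.9% in SQ8 and 27.3% in NFA8, and among candidates, in the same order, it was 34.1%, 70.1%, 47.3%, 55.6%, 49.1% and 28.2%. AT5G26270 had lost 7.0 elements on average in TAMM27 and 2.4 in the other 5, whereas the NFA8 member AT4G08380 had lost 0.0 in NFA8 and 1.1 elsewhere. The lists were made from the same arrays, and the part of the removed elements in the levels was not tested.

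By chromosome, 34 members lie on 1, 17 on 2, 15 on 3, 16 on 4 and 18 on 5, where the candidates number 939, 539, 726, 514 and 926. No 2 members raised in the same accession lie within 5 genes of each other in the RefSeq order. Neighbours raised in different accessions were AT1G26410 (Var2-1) and AT1G26390 (SQ8), 2 genes apart, AT3G25600 (Kas2) and AT3G25640 (SQ8), 4 apart, and AT5G52720 (SQ8) and AT5G52680 (Kas2), 4 apart. Of 159 tested neighbours within 5 genes of a member, 16 (10.1%) were highest in the member's accession, against 14.6% for the neighbours of all candidates.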

How the data were processed

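Per the labels, the authors deposited MAS5 signal intensity on a linear scale for 42 arrays, computed once elements out of rank order relative to Col0 had been removed. The MAS5 version is not given in the sources used here. The deposited lists of discarded elements (12) were counted per probe set. Genes came from the platform annotation and names from RefSeq. Signals were transformed to log2(signal + 1) with no further scaling. limma 3.58.1 (R 4.3.3) fitted 14 group means with a trended prior, after dropping probe sets whose highest accession mean did not exceed that of a signal of 200, and Benjamini-Hochberg adjustment at 0.1 followed the methods' false discovery rate. The script was tested on simulated data. The members and lists were chosen with earlier results of these data known. Genes were named by rule: the 4 largest leads in each accession, members called for nitrate, and ranks 1 to 5, 99 and 100. Other loci were named after their values were seen. Product word lists matched 0 of the 100 members because RefSeq gave symbols and not products, so they say nothing of function. Alternatives covered scaling, pseudocount, filter, model, block, ratio and each array left out.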

Additional observations from a re-analysis of the deposited data

How the results depend on the processing

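The averaged nitrate response was called for 1 member with no filter on low signals (31 of 13367 probe sets, 0.232%), for 1 under an ordinary linear model (54 of 5260, 1.03%), for 4 with the RNA integrity ratio as a covariate (115 of 5260, 2.19%) and for 1 to 4 when each array was left out in turn, against 2 in the fit reported (53 of 5260, 1.01%). In the raised accession the count was 1 with a pseudocount of 16 (AT2G15560, -2.45, adjusted p = 0.0733, limma) and 0 to 1 with an array left out. The response against the other 6 accessions gave 0 to 1 and the interaction 0 to 0. AT3G10930 and AT1G33840 were the members called when Kas2 KNO3 replicate 3 and Ts5 KNO3 replicate 3 were left out. Of the 100 probe sets chosen in KCl, 20 to 44 were called with a KNO3 array left out, against 5.27 to 11.2% over all. The count was 28 after quantile normalization (6.99% over all) and 35 with a pseudocount of 16 (8.49% over all). Applying the rule again kept 41 members on the KCl arrays, 46 on the KNO3 arrays, 53 with medians, 32 on arrays whose integrity ratio was low, and 80 to 99 with an array left out, the fewest without Var2-1 KCl replicate 1. With both Var2-1 arrays of replicate 1 left out, an alternative chosen after seeing the data, 67 were kept.

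The response in the raised accession changed sign for 4 of 273 values of the 28 named members under the other settings: AT5G34920 (-0.035) and AT1G49500 (-0.18) without both Var2-1 arrays of replicate 1, and AT5G26270 (-0.056) and AT5G35940 (-0.032) after quantile normalization. None of the 28 was called in any setting. With an array left out, 28 of 1176 values changed sign. In Kas2 the range was AT4G22110 -0.62 to 1.01, AT3G25600 -0.12 to 0.36 and AT1G11410 -0.084 to 1.14. In NFA8 the range was AT1G60690 -0.71 to 0.032 and AT4G07820 -0.90 to 0.049. In SQ8 the range was AT1G33910 -0.56 to 0.070, AT5G52720 -0.50 to 1.19 and AT5G35940 -0.11 to 0.41. In TAMM27 the range was AT5G26270 -0.40 to 0.37 and AT1G62290 -0.029 to 0.78. In Ts5 the range was AT4G20230 -0.19 to 1.04 and AT4G09110 -0.65 to 0.33. In Var2-1 the range was AT2G45230 -0.12 to 0.98, AT5G34920 -0.56 to 0.72, AT1G26410 -0.60 to 2.68 and AT4G18975 -0.78 to 0.35. The cause was not tested.

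Replicate numbers were tried as a block. Of 21 pairs of same-numbered groups in KCl and KNO3, 11 deviated together with a correlation over 0.1 (-0.26 to 0.70), so the numbers were not taken to pair the samples over the series. In Col0, TAMM27 and Var2-1 all 3 pairs did so (0.20 to 0.70). The block was shared by all accessions, so it could not take up pairing within an accession, which no fit modelled. With the replicate block the counts were 2 for the averaged response and 0 for the other 3 nitrate results. For the KCl-chosen probe sets the count was 34, against 411 of 3850 over all (10.7%). With 3 arrays a group and a within-group SD near 0.95, the number of arrays limits the precision.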
